A study of Mus musculus with 6 samples.

Results

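The genes described here are those of sterol and fatty acid synthesis together with the regulators that drive them through SREBP, the sterol regulatory element-binding proteins. They were taken from the value table as transcript clusters (the array's unit for a transcript) whose single annotated gene symbol stood on a list of 30 genes. For 29 of the 30 such a cluster was found, among 19933 genes named in the same way. Acat2 had no such cluster and was not analysed here. Where a gene had several clusters, the brightest by mean over the 6 arrays was used. The list divides into a sterol branch of 16 measured genes, a fatty acid branch of 7, and 6 regulators and sterol-handling genes.

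The series compared mouse hearts labelled KO for b1 integrin, the product of Itgb1 and the common β subunit of many matrix receptors, with wild-type hearts, both at E12.5. Each group had 3 samples, described as biological replicates, and each sample was read on 1 Affymetrix Mouse Gene 1.0 ST array. The study looked for expression changes at a stage before the mutant hearts visibly fail. Strain, the form of the mutant allele, the cells in which it was deleted and the number of hearts in a sample were not stated in the labels. If samples shared a source, the tests measure only the spread between these samples. Values are deposited log2 signals, so a difference of 1 is a doubling, and every difference below is knockout minus wild type. Values per heart are listed in the order of replicates 1, 2 and 3. A signal compares hearts for 1 gene. Where signals of different genes were averaged, or 1 branch mean was taken from the other, the result serves only to compare hearts.

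Animal cells build cholesterol from acetyl-CoA through mevalonate, farnesyl diphosphate and squalene, and build saturated and monounsaturated fatty acids from the same acetyl-CoA through malonyl-CoA. SREBP2, from Srebf2, mainly drives the sterol enzymes, and SREBP1, from Srebf1, mainly the fatty acid enzymes. When membranes lack sterol, the escort protein SCAP carries the SREBP precursors to the Golgi for cleavage, whereas INSIG proteins hold them in the endoplasmic reticulum when sterol is plentiful. SREBP proteins act with partner factors at promoters, NF-Y at the CCAAT box among them. In the embryo these pathways supply membrane to growing tissue, and sterols modify Hedgehog proteins.

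Across the whole table no group difference passed adjustment, which with 3 samples per group does not show that the differences were small. With limma's moderated test and Benjamini-Hochberg adjustment, 0 of 28767 clusters (0%) passed 0.05. At an unadjusted p under 0.05, 2.87% of clusters were lower and 3.06% higher in the knockout. The targeted gene Itgb1 measured 11.76, 11.80 and 11.78 in the wild-type hearts against 11.53, 11.42 and 11.65 in the knockout hearts, so all 3 knockout hearts lay below all wild-type hearts, yet most of the signal was still there (84.0%). Whether the probes lie in the deleted part is not known. Knockout replicate 1 stood apart. The mean of 8 genes of the low-oxygen response was 10.76 in it, against 9.44 and 9.33 in knockout replicates 2 and 3 and 9.08 to 9.12 in the wild-type hearts. Its mean of 7 measured erythroid markers was 10.11, against 8.80 to 9.16 in the other 5 hearts. Results that rest on this heart are given with and without it.

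The sterol and fatty acid genes had mostly slightly lower means in the knockout hearts when all 6 samples were used, and none passed the test over all clusters (limma, lowest adjusted p = 0.797). This direction was lost among the 3 samples with low Xist, the RNA of the inactive X chromosome (1 wild-type and 2 knockout). There 15 genes were lower and 14 higher, with a median difference of -0.003. Of all clusters 53.1% were lower in that setting, with a median of -0.012. The wild-type sample of the 3 was replicate 3, the lowest wild-type heart for 18 of the 29 genes. Whether sex or that heart had a part in this was not tested. By their means over all 6 samples 22 of 29 genes were lower (Stard4, at 0.00, counted among them) and 7 higher, while 53.5% of all clusters were lower. The median difference of the 29 genes was -0.10, against -0.01 for all clusters and -0.03 for the 10844 named genes above the median level, where 28 of the 29 lie. For a single gene the standard error had a median of 0.11 over all clusters, which is not the spread of a median over 29 genes. Taken per heart, the median deviation from the wild-type means had a pooled SD of 0.056 within groups. In wild-type replicate 3 it was -0.057, below the -0.044 and -0.051 of knockout replicates 2 and 3. For 8 genes every knockout heart lay below every wild-type heart, which is 27.6% of the 29, whereas 6.61% of all clusters did so. No member lay wholly above the wild-type hearts, as 6.01% of all clusters did. At an unadjusted p under 0.05 there were 2 of the 29 members, Nsdhl and Mylip, both lower. At that p 2.87% of all clusters were lower and 3.06% higher, so the count of 2 is near the share over the table. Leaving out 1 heart at a time gave 0 to 3 such members. The loss of any of 3 hearts brought the count to 0: knockout replicate 1, wild-type replicate 1 or wild-type replicate 2.

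These counts depended on single hearts. Without knockout replicate 1, 18 genes were lower and 11 higher, with a median difference of -0.04, while 52.1% of all clusters were lower and their median was -0.006. In that setting 9 genes lay wholly below the wild-type hearts (31.0%), as did 11.1% of all clusters, a larger share than before since fewer hearts overlap less often. With wild-type replicate 3 left out in place of it, 25 genes were lower and 4 higher, and 14 lay wholly below (48.3%), against 12.7% of all clusters. Among the 3 samples with low Xist the median of the sterol branch turned to 0.065 and that of the fatty acid branch was -0.003. With 1 wild-type sample, replicate 3, this setting gives values with no spread in that group. Of the 29 genes, 17 kept their sign under all 15 other settings listed in the processing notes that gave a value. Another 11 changed sign under at least 1, and Stard4 had a difference of 0.00. Some of these settings leave the difference of a gene as it is and could not change a sign. They are the dim filter, 1 cluster per gene, the robust variance with trend and the replicate block. The genes of the list share regulators and are no independent replicates of each other.

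**Figure D1:**
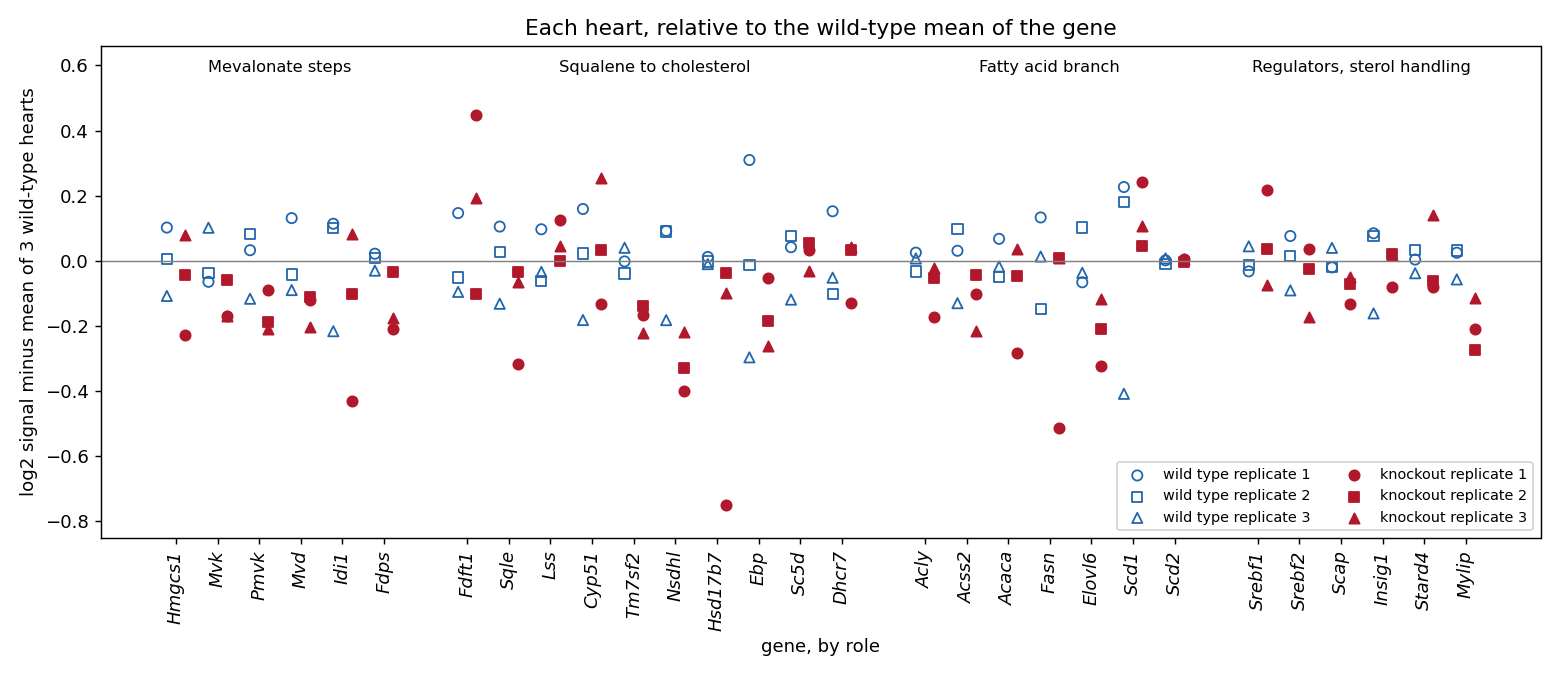
Log2 signal of each of the 29 genes in each heart, minus the mean of the 3 wild-type hearts for that gene. Open blue symbols are wild-type and filled red symbols knockout hearts, with 1 symbol shape per replicate number. Nsdhl, Mylip, Elovl6, Tm7sf2, Mvd, Fdps, Hsd17b7 and Scap show no overlap between the groups. The low points of Hsd17b7 and Fasn are knockout replicate 1.

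The early sterol genes, which make farnesyl diphosphate from acetyl-CoA, were the most uniform group. All 6 measured genes had a lower mean in the knockout, with a median difference of -0.14, and 2 of them, Mvd and Fdps, showed no overlap. Of the named genes above the median level, 59.6% had a lower mean and 8.79% lay wholly below. All 6 early sterol genes were below the wild-type mean in knockout replicates 1 and 2 as well, and 4 were in replicate 3. None passed the test, and without knockout replicate 1 the split was 5 lower and 1 higher. Hmgcs1 and Idi1 were the 2 whose knockout replicate 3 lay above the wild-type mean.

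Because the results turn on whether SREBP targets moved together, the promoters of 4 sterol genes are shown with the letters searched for. RefSeq promoters of build GRCm38.p6 were found for 23 of the 29 genes and searched on both strands, over the 250 bases before the start, for TCACNCCA (a core of the sterol regulatory element) and for CCAAT (the NF-Y box). The motifs share no bases in the stretches printed. TCACNCCA was in the promoters of 2 of the 23 genes (8.70%), Hmgcs1 and Srebf2, against 4.2% of all 27025 genes and 3.67% of all 32851 promoters in the table. CCAAT was in a promoter of 19 of the 23 genes (82.6%), against 37.5% of all genes and 33.8% of all promoters. Hmgcs1 and Srebf2 are printed as the carriers of both motifs, Mvk as the promoter with the most CCAAT boxes, and Nsdhl as the gene with the lowest p. Capitals mark motif matches on either strand, and all stretches lie on the + strand before the start, at chr13:119690104-119690320 (Hmgcs1), chr15:82147097-82147148 (Srebf2), chr5:114444086-114444268 (Mvk) and chrX:72918402-72918515 (Nsdhl).
Hmgcs1: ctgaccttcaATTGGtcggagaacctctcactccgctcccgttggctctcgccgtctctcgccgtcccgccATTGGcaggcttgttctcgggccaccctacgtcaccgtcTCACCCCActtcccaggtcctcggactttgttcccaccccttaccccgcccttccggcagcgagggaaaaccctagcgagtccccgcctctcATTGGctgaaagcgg
Srebf2: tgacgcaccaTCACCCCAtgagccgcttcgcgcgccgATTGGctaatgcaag
Mvk: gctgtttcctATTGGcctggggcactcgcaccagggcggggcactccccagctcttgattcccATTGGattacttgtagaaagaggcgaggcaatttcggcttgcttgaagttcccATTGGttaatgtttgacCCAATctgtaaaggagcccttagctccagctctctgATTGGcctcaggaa
Nsdhl: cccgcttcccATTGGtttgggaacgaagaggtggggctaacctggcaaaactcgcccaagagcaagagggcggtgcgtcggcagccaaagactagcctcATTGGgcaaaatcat
A match says only that these letters are there. The 2 genes with both motifs differed by -0.06 (Hmgcs1) and -0.05 (Srebf2), while Mvk, with 5 CCAAT boxes, differed by -0.13 and Nsdhl, with 2, by -0.32.

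Hmgcs1, HMG-CoA synthase, makes the precursor of mevalonate and is a much used readout of SREBP activity. It measured 10.12, 10.03 and 9.91 in the wild-type hearts against 9.79, 9.98 and 10.10 in the knockout hearts. The groups overlapped widely, with knockout replicate 3 level with the highest wild-type heart, and the difference was -0.06 ± 0.11 (SE; limma, adjusted p = 0.918). Without knockout replicate 1 the sign turned, to 0.02. Idi1, the isomerase of isopentenyl diphosphate, had the same order of hearts within each group. It stood at 9.29, 9.28 and 8.96 in the wild-type hearts against 8.75, 9.08 and 9.26 in the knockout hearts. Its difference of -0.15 ± 0.15 (SE) was -0.01 without knockout replicate 1. The second cluster of Idi1 differed by -0.14, close to that of the first.

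The kinases, the decarboxylase and Fdps kept a lower mean with any single heart left out. Pmvk, phosphomevalonate kinase, measured 8.21, 8.26 and 8.06 in the wild-type hearts against 8.09, 7.99 and 7.97 in the knockout hearts. Only the pair of wild-type replicate 3 and knockout replicate 1 overlapped, and the difference was -0.16 ± 0.09 (SE), or 89.3% of the wild-type signal. Mvd, which decarboxylates mevalonate diphosphate, was at 8.30, 8.13 and 8.08 in the wild-type hearts against 8.05, 8.06 and 7.97 in the knockout hearts. There was no overlap, by a gap smaller than the spread within either group, and the means were 8.17 ± 0.12 and 8.03 ± 0.05 (SD, n = 3 each). Fdps, farnesyl diphosphate synthase, stood at 8.77, 8.75 and 8.71 in the wild-type hearts against 8.53, 8.71 and 8.57 in the knockout hearts, the closest pair being 8.713 and 8.709. Mvk, mevalonate kinase, was lower by a like amount (-0.13 ± 0.09, SE) with overlap. Without knockout replicate 1 the differences of these 4 genes were -0.20 (Pmvk), -0.16 (Mvd), -0.10 (Fdps) and -0.11 (Mvk), and those of Mvd and Mvk shrank most without wild-type replicates 1 and 3, to -0.08 each.

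The later steps, from squalene to cholesterol, were mixed. Of 10 genes 6 were lower and 4 higher by their means, with a median difference of -0.08. That split is near the 59.6% lower among the named genes above the median level. The 3 with no overlap were Nsdhl, Tm7sf2 and Hsd17b7, while 6.61% of all clusters lay wholly below. Without knockout replicate 1 the split was 5 and 5, with a median of -0.02.

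Nsdhl encodes a sterol dehydrogenase of the complex that strips methyl groups from lanosterol-derived sterols, and is X-linked. It measured 8.33, 8.33 and 8.06 in the wild-type hearts against 7.84, 7.91 and 8.02 in the knockout hearts. All knockout hearts lay below all wild-type hearts, but knockout replicate 3 and wild-type replicate 3 were only 8.022 and 8.058. The means were 8.24 ± 0.16 and 7.92 ± 0.09 (SD, n = 3 each), and the difference of -0.32 ± 0.11 (SE) corresponds to 80.3% of the signal in wild-type hearts. By an exact permutation test (two-sided) p was 0.1, and 3 hearts against 3 allow no smaller value. Any gene without overlap between the groups gets this p, so the test adds nothing to the lack of overlap. Of all clusters 6.61% lay wholly below and 6.01% wholly above. The adjusted p from limma was 0.797. Leaving out 1 heart at a time gave differences from -0.41 to -0.27.

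Signals that mark the sex of the embryos differed between the samples. Xist measured 8.37, 11.26 and 4.86 in the wild-type hearts against 8.28, 5.71 and 5.01 in the knockout hearts. The Y-linked gene Eif2s3y was at 9.35, 5.77 and 9.33 in the wild-type hearts against 9.12, 9.37 and 9.41 in the knockout hearts. Thus wild-type replicate 2 had Xist and a low Y-linked signal, wild-type replicate 1 and knockout replicate 1 had both signals, and the other 3 had the Y-linked signal with low Xist. Nsdhl was highest in the 2 wild-type samples with Xist, but lowest in the knockout sample with Xist. Between the 3 samples with low Xist, wild-type replicate 3 against knockout replicates 2 and 3, its difference was -0.09. The other X-linked member, Ebp, a sterol isomerase, stood at 8.07, 7.75 and 7.46 in the wild-type hearts against 7.71, 7.58 and 7.50 in the knockout hearts. For Ebp the 3 samples with Xist were the 3 highest, and the difference of -0.17 ± 0.15 (SE) came with a range of 0.61 among the wild-type hearts alone. The part of sex in both differences was not tested.

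**Figure D2:**
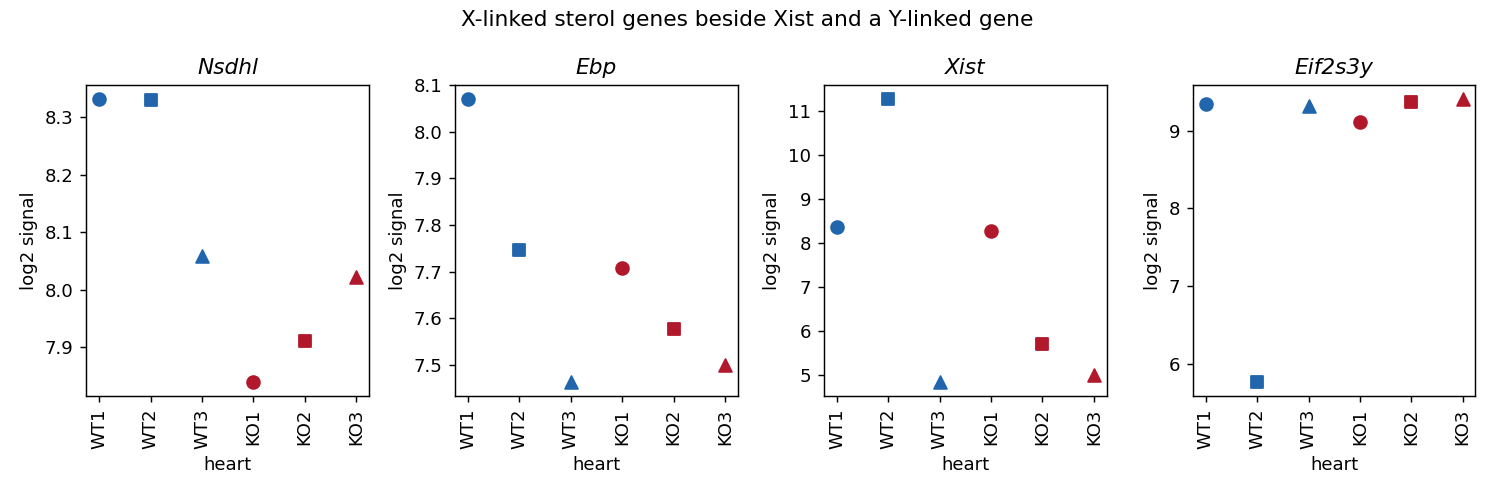
Log2 signal of Nsdhl and Ebp, both X-linked, beside Xist and the Y-linked gene Eif2s3y in each of the 6 samples (WT, wild type, blue; KO, knockout, red; 1 symbol shape per replicate number; each panel has its own axis range). Nsdhl is at most 8.02 in the 3 knockout hearts and at least 8.06 in the 3 wild-type hearts, and the 3 samples with an Xist signal above 8 have the 3 highest Ebp values.

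Hsd17b7 acts beside Nsdhl in the same complex, as its ketoreductase, and gave the most uneven result. It was 8.03, 8.02 and 8.01 in the wild-type hearts, a range of 0.02, and 7.27, 7.98 and 7.92 in knockout hearts. The whole of the difference beyond -0.07 came from knockout replicate 1, which lay 0.72 below the mean of the other 5 hearts. With it the difference was -0.30 ± 0.18 (SE). Msmo1, the oxidase of the complex, is not on the list of 30 and differed by -0.14 ± 0.09 (SE). All 3 enzymes of this demethylation complex were thus lower by their means, to unequal degrees and with no adjusted p under 0.797.

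Tm7sf2, a sterol reductase whose reaction the lamin B receptor also performs, differed most evenly. It measured 7.08, 7.04 and 7.12 in the wild-type hearts against 6.91, 6.94 and 6.86 in the knockout hearts. The SD was 0.04 in both groups, and the difference of -0.18 ± 0.08 (SE), or 88.5% of the wild-type signal, was -0.18 without knockout replicate 1 too.

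Squalene synthase and epoxidase, which commit farnesyl diphosphate to sterols, went opposite ways in knockout replicate 1. Fdft1, the synthase, was 9.65, 9.45 and 9.41 in the wild-type hearts against 9.95, 9.40 and 9.70 in the knockout hearts, the difference being 0.18 ± 0.15 (SE). Sqle, the epoxidase, was 9.09, 9.01 and 8.85 in the wild-type hearts against 8.67, 8.95 and 8.92 in the knockout hearts, the difference being -0.14 ± 0.11 (SE). Knockout replicate 1 was the highest of all hearts for Fdft1 and the lowest for Sqle. Without it both lay near 0, at 0.05 and -0.05. A second Fdft1 cluster gave 0.16 in place of 0.18.

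The remaining late enzymes showed no difference beyond their spread. Lss, which cyclises oxidosqualene to lanosterol, differed by 0.06 ± 0.09 (SE), and Cyp51, the lanosterol demethylase, by 0.05 ± 0.13. Sc5d, a sterol desaturase, stood at 0.02 ± 0.09 and Dhcr7, the reductase that completes cholesterol, at -0.02 ± 0.10. Cyp51, Sc5d and Dhcr7 each changed sign under at least 1 alternative.

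**Figure D3:**
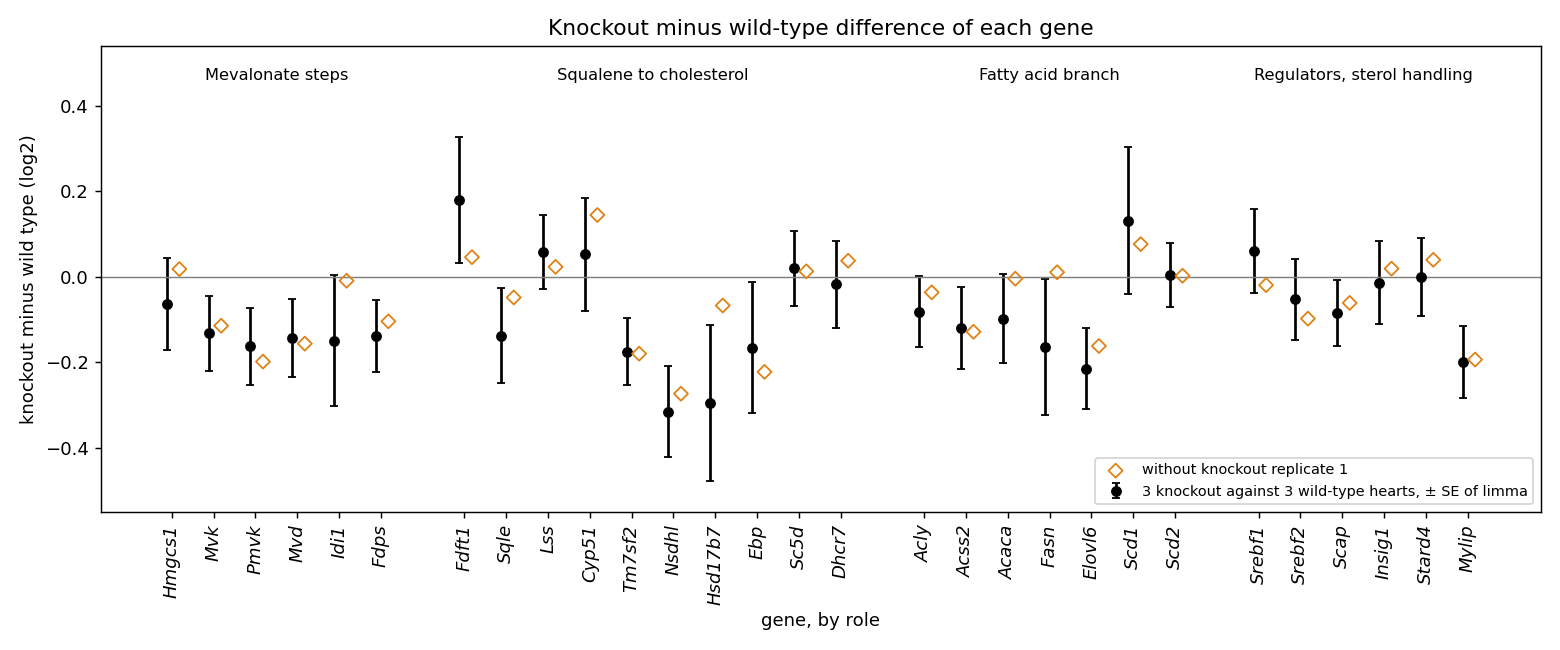
Knockout minus wild-type difference of each gene on the log2 scale, from limma over all clusters (black points, ± SE, 3 hearts against 3) and without knockout replicate 1 (orange diamonds). All 6 mevalonate genes lie below 0 with all hearts, Nsdhl is lowest at -0.32, and the diamonds of Hsd17b7, Fasn, Idi1 and Fdft1 lie nearer to 0 than the points.

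Much of the variation of the sterol genes ran between hearts of 1 group. Wild-type replicate 3 was the lowest wild-type heart for 12 of the 16 sterol genes (75.0%), against 47.4% of the named genes above the median level. Its sterol branch mean of 8.29 lay below those of knockout replicates 2 and 3, at 8.30 and 8.32, and for 8 of the 16 genes it lay below both. Cyp51 shows this at 8.02, 7.88 and 7.68 in the wild-type hearts against 7.73, 7.89 and 8.11 in the knockout hearts, where the lowest is wild-type replicate 3 and the highest knockout replicate 3. Over the 16 genes the median range among the 3 wild-type hearts was 0.22, larger than the median difference between the groups.

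The fatty acid branch was lower by a similar amount. Of 7 genes 5 were lower and 2 higher, the median difference was -0.10, and only Elovl6 showed no overlap. Of the named genes above the median level, 59.6% were lower and 8.79% lay wholly below, so these counts are near those shares. Without knockout replicate 1 the median was -0.005, with 4 genes lower and 3 higher, so the lower median rested on that heart.

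Elovl6, the elongase that extends palmitate to stearate, kept its difference. It measured 9.13, 9.30 and 9.16 in the wild-type hearts against 8.87, 8.99 and 9.08 in the knockout hearts. All knockout hearts were lower, and the difference was -0.22 ± 0.09 (SE), 86.1% of the wild-type signal, and -0.16 without knockout replicate 1 (limma, adjusted p = 0.797 with all hearts).

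Fasn, fatty acid synthase, showed the opposite pattern. It was 9.84, 9.56 and 9.72 in the wild-type hearts against 9.19, 9.72 and 9.72 in the knockout hearts. Knockout replicates 2 and 3 lay inside the wild-type range, and knockout replicate 1 alone was low, by 0.52 against the mean of the other 5. The difference was -0.16 ± 0.16 (SE) with it and 0.01 without it. Acaca, acetyl-CoA carboxylase, which makes malonyl-CoA, followed the same course, at -0.10 ± 0.11 (SE) with knockout replicate 1 and -0.005 without it. Its dimmer second cluster differed by -0.17.

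Acly and Acss2 supply cytosolic acetyl-CoA, from citrate and from acetate, to both branches. They differed by -0.08 ± 0.08 and -0.12 ± 0.10 (SE), each with overlap. Scd1 and Scd2 are the desaturases that make monounsaturated fatty acids. Scd1, the one member below the median level of all clusters, was at 5.92, 5.87 and 5.28 in the wild-type hearts against 5.93, 5.74 and 5.80 in the knockout hearts. Its difference of 0.13 ± 0.17 (SE) came from the low wild-type replicate 3, without which the sign turned. Scd2, at the 97.6 percentile of all clusters, was nearly constant, at 11.63, 11.62 and 11.63 in the wild-type hearts against 11.63, 11.62 and 11.63 in the knockout hearts. Its range over the 6 hearts was 0.017, and 1 of the 19933 named genes had a smaller one. Under other scalings the range was 0.047 to 0.085, and 7 to 128 genes had a smaller one.

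Set against each other, the branches differed between the groups by similar amounts. The sterol branch mean was 8.38 ± 0.09 in wild-type and 8.28 ± 0.05 in knockout hearts (SD, n = 3 each), a difference of -0.10. The fatty acid branch mean was 8.97 ± 0.07 and 8.89 ± 0.08 (SD, n = 3 each), a difference of -0.08. Sterol minus fatty acid was -0.56, -0.60 and -0.60 in the wild-type hearts against -0.58, -0.62 and -0.62 in the knockout hearts. These values overlapped, and their shift of -0.022 was close in size to the SD between hearts (0.027 in wild-type and 0.021 in knockout hearts). It was -0.001 without the X-linked genes Nsdhl and Ebp. No p is given for these means, since the genes were listed with results of these data known. In whole hearts a lower signal from fewer cells of a type and from less RNA per cell cannot be told apart.

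**Figure D4:**
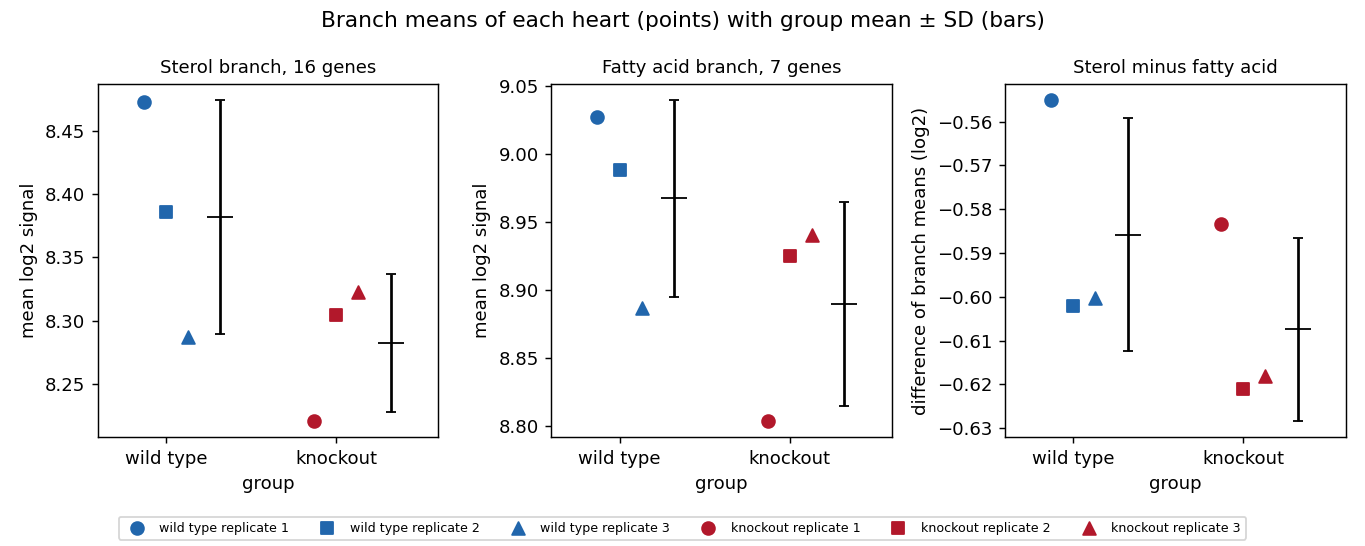
Mean log2 signal of the 16 sterol genes and of the 7 fatty acid genes, and their difference, in each heart (points, blue for wild type and red for knockout, 1 symbol shape per replicate number), with the group mean ± SD beside them (n = 3). Wild-type replicate 3 and knockout replicate 1 are the low hearts of their groups in both branches, and the groups overlap in all 3 panels.

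Of the 6 regulators and sterol-handling genes, 4 had lower means, Stard4 was at 0.00 and Srebf1 was higher, with a median difference of -0.03. Of all clusters 53.5% had a lower mean and 6.61% lay wholly below. The 2 SREBP genes themselves differed by less than their standard errors. Srebf2 measured 10.14, 10.07 and 9.97 in the wild-type hearts against 10.10, 10.04 and 9.89 in the knockout hearts, with wide overlap and a difference of -0.05 ± 0.09 (SE). Srebf1 was 8.65, 8.67 and 8.73 in the wild-type hearts against 8.90, 8.72 and 8.61 in the knockout hearts, a difference of 0.06 ± 0.10 (SE). Here knockout replicate 1, low for Fasn and Sqle, was the highest heart. Insig1, both an SREBP target and the anchor that retains SREBP, was 9.32, 9.31 and 9.07 in the wild-type hearts against 9.16, 9.26 and 9.25 in the knockout hearts. Its difference was -0.01 ± 0.10 (SE), and again wild-type replicate 3 was lowest.

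Scap, the SREBP escort, was 8.62, 8.62 and 8.68 in the wild-type hearts against 8.51, 8.57 and 8.59 in the knockout hearts. The groups did not overlap, but the difference of -0.08 ± 0.08 (SE) was close to its error. Stard4, which moves sterol between membranes, stood at 0.00 ± 0.09 (SE). Mylip encodes a ubiquitin ligase that is induced by the LXR sterol receptors. It measured 8.02, 8.03 and 7.94 in the wild-type hearts against 7.79, 7.72 and 7.88 in the knockout hearts, all 3 lower. The difference was -0.20 ± 0.08 (SE; limma, adjusted p = 0.797), 87.1% of the wild-type signal, and -0.19 without knockout replicate 1.

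Further genes of these pathways were taken from a second list of 34, of which 28 were measured. Of these 12 were lower and 16 higher, with a median difference of 0.03 and 0 past the adjusted threshold of limma. Among all clusters 53.5% had a lower mean. The split turned to 15 lower and 13 higher, with a median of -0.002, when knockout replicate 1 was left out. The 3 measured sterol synthesis genes of this list, Msmo1, Tmem97 and Ggps1, were all lower by their means, at -0.14, -0.07 and -0.01, and Ggps1 turned to 0.05 without knockout replicate 1. The 2 at an unadjusted p under 0.05 were Abca1 and Lrp1, both higher. Of all clusters 2.87% were lower and 3.06% higher at that p. Abca1, the cholesterol efflux pump and, like Mylip, a target of LXR, measured 8.04, 7.86 and 8.04 in the wild-type hearts against 8.17, 8.32 and 8.17 in the knockout hearts. All knockout hearts were higher, by 0.24 ± 0.09 (SE), the reverse of Mylip. Lrp1, a lipoprotein and matrix receptor, was higher by 0.38 ± 0.15 (SE), with overlap. The third lowest p belonged to Me1, malic enzyme, a source of NADPH for lipid synthesis, at 0.21 ± 0.10 (SE).

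Of the 28 measured genes of this second list, 4 had every knockout heart above every wild-type heart, as 6.01% of all clusters did. They were Abca1, Insig2, Slc25a1 and Lpin1, and for the last 3 knockout replicate 1 was the highest heart. Insig2, the second SREBP anchor, was 8.81, 8.82 and 8.80 in the wild-type hearts against 9.64, 8.89 and 8.90 in the knockout hearts. Lpin1, a phosphatidate phosphatase, was 6.98, 7.10 and 7.15 in the wild-type hearts against 8.39, 7.29 and 7.20 in the knockout hearts. Without knockout replicate 1 their differences of 0.33 and 0.55 were 0.08 and 0.17. Slc25a1, the mitochondrial citrate carrier, went from 0.16 to 0.06. These 3 genes were named after their values were seen. The heart in which they were high is also the one low in Fasn, Sqle, Idi1 and Hsd17b7 and high in the low-oxygen genes, and the part of the latter was not tested.

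Markers of cell types were read beside these results, and beside the 53.5% of all clusters that had a lower mean in the knockout. All 10 cardiomyocyte markers lay above the median level of all clusters, and 7 were lower, with a median difference of -0.05 and list means of 12.34, 12.30 and 12.30 in the wild-type hearts against 12.20, 12.29 and 12.26 in the knockout hearts. Of 6 endothelial markers 5 were lower, with a median of -0.12. Of 10 liver markers 9 were higher, with list means at 5.58, 5.56 and 5.74 in the wild-type hearts against 5.92, 6.11 and 6.19 in the knockout hearts, though only 2 of the 10 lay above the median level of all clusters. Alb reached 5.83, 6.14 and 7.15 in knockout hearts from 4.38, 4.89 and 5.13. Of 8 macrophage markers 7 were higher, with list means of 6.75 to 6.91 in wild-type hearts, against 7.05 to 7.16 in knockout hearts. Only 4 of the 8 lay above the median level of all clusters, and Lyz2 went the other way, at -0.40 ± 0.17 (SE). All 7 measured erythroid markers were higher by their means, but 4 of the 7 were lower without knockout replicate 1. Of 5 markers of cushion mesenchyme, the tissue of the forming valves, 4 were higher, and the list mean varied within the groups, from 8.79 to 9.80 in wild-type hearts. Of 5 epicardial markers 3 were higher. The part of these cell types in the sterol and fatty acid values was not tested.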

How the data were processed

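RNA of 6 mouse heart samples was measured on Affymetrix Mouse Gene 1.0 ST arrays. The authors deposited log2 signals, a scale read from the range of the values; RMA is named in the submitters' processing notes. Version, annotation, build and filters: not given in the sources used here. RMA sets arrays to a common distribution and compresses differences of dim clusters. Array medians were 6.65 to 6.71, and the number of arrays limits the precision.

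The platform annotation gave 1 symbol for 21776 of 28767 clusters, several for 1618 and none for 5373; 21686 matched RefSeq by Entrez identifier. Clusters without a single symbol were tested but not named. limma (version 3.58.1, R 4.3.3) was fitted to all clusters with lmFit and eBayes, with Benjamini-Hochberg adjustment at 0.05, and tested on simulated data. All 29 measured genes are named. Values per heart are given for the 8 with the lowest p, for any without overlap, and for Srebf1, Srebf2, Hmgcs1, Insig1 and Fasn; Idi1, Sqle, Fdft1, Cyp51, Ebp, Scd1 and Scd2 were added after their values were seen. The members and lists were chosen with earlier results of these data known, and the promoter motifs after the values were seen. Alternatives were a dim filter, 1 cluster per gene, cluster means, quantile, cyclic loess, centring, array weights, a replicate block, a robust variance with trend, and leaving out each heart.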

Additional observations from a re-analysis of the deposited data

How the results depend on the processing

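No gene of the list passed limma's adjusted threshold under any alternative; the lowest adjusted p of a member over the 15 alternatives ran from 0.258 (array weights) to 0.994. Clusters at an unadjusted p under 0.05 numbered 1705, against 891 without dim clusters, 1067 with 1 cluster per gene, 3650 with array weights and 1076 to 2714 with single hearts left out. Leaving out each heart gave 0 or 1 clusters past the threshold, 4 to 11 members higher, and medians of -0.124 to -0.037 for all members, -0.158 to -0.058 for the sterol branch and -0.124 to -0.005 for the fatty acid branch, the weakest each time without knockout replicate 1. An alternative added after the data were seen left out the 3 samples with an Xist signal above 8, which left 1 wild-type and 2 knockout samples: 14 members were higher, the medians were -0.003 for all members, 0.065 for the sterol and -0.003 for the fatty acid branch, and Nsdhl stood at -0.092. Sterol minus fatty acid was 0.013 without dim clusters, which drops Scd1. Over single hearts left out, differences that changed sign ran from -0.135 to 0.018 for Hmgcs1, -0.252 to 0.010 for Fasn and -0.020 to 0.127 for Srebf1 (each turned without knockout replicate 1), from -0.073 to 0.244 for Scd1 and -0.040 to 0.058 for Sc5d (without wild-type replicate 3), and from -0.098 to 0.007 for Srebf2 (without knockout replicate 3). Fdft1 was -0.018 with array weights, and Scd2 was -0.003 with centring and -0.001 without wild-type replicate 2. Cyp51 ran from -0.049 to 0.144 and Dhcr7 from -0.068 to 0.058, the latter at 0.012 with cyclic loess and 0.023 with array weights; Insig1 was 0.016 with cyclic loess and ran from -0.095 to 0.028 over single hearts left out. The cause was not tested. The replicate block, as the titles share numbers, gave 0 clusters past the threshold. Its member median of -0.098 was bound to equal that without the block, as a balanced block leaves each difference unchanged. Over all clusters, same-numbered hearts had deviations from their group means correlated at -0.042, -0.026 and -0.056. The labels state no pairing, and with 3 hearts per group these correlations cannot tell whether same-numbered hearts shared a source. Leaving Acat2 out gave no value, as it was not measured.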

Other observations

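Both other Y-linked genes measured, Kdm5d and Uty, repeated the pattern of Eif2s3y. Kdm5d was 8.55, 5.96 and 8.47 in the wild-type hearts against 8.15, 8.46 and 8.52 in the knockout hearts, and Uty was 8.58, 5.74 and 8.38 in the wild-type hearts against 8.74, 8.50 and 8.54 in the knockout hearts. Wild-type replicate 1 and knockout replicate 1 therefore carried Xist at 8.37 and 8.28 together with all 3 Y-linked signals, between the 11.26 of wild-type replicate 2 and the 4.86 to 5.71 of the other 3 samples. The labels do not say how many embryos a sample holds.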
